A study of Arabidopsis thaliana with 10 samples.

Results

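The cyclins, cyclin-dependent kinases (CDK), CDC proteins, kinase inhibitors of the KRP family, E2F factors, and the MCM and ORC replication proteins were looked for by symbol on Arabidopsis ATH1 arrays. A probe set counted as a member if the platform's gene table gives it 1 gene whose symbol begins with the name of one of these families. In capitals as spelled, 1 of 22746 probe sets met this rule, CDC27a, and with letter case ignored there were 2, CDC27a (locus AT3G16320, chromosome 3) and cdc2cAt (AT5G39420, chromosome 5). RefSeq gives a symbol of these families to 81 genes, of which 1 has a single-gene probe set in the table. The other family members, among them all genes with a cyclin, KRP, E2F or ORC symbol, were not analysed here, so the families as a whole are not described by these values. To set the 2 members among other genes of cell division, 16 genes were added. These are 15 genes of 4 lists by role, and PRL (AT4G02060), which RefSeq also calls MCM7 and which was added after the names were known.

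The plants were Arabidopsis thaliana with the klu-2 allele in every group. They carried an ethanol-inducible transgene, with 35S driving AlcR and the AlcA promoter driving KLU, the P450 enzyme CYP78A5, in its wild-type form or as a mutant protein that served as the control. Pooled inflorescences with young buds were taken before induction (wild-type KLU only) and after 90 or 240 min of ethanol vapour, which gave 5 groups of 2 arrays. The 2 arrays of a group come from 2 separate transgenic lines, called 3-1 and 4-3 where KLU was wild type and 1-5 and 3-2 where it was mutant. No age is given, and no uninduced mutant array was analysed here. Values are log2 intensities after RMA, and the array medians lay between 5.93 and 6.05.

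Cell division runs through G1, DNA synthesis in S, G2 and mitosis. D-type cyclins and E2F factors act at entry into S, and ORC and MCM proteins license and open the replication origins. B-type cyclins with CDKs drive mitosis, and the anaphase-promoting complex, a ubiquitin ligase, ends it by marking cyclins for destruction. KLU is known to promote organ growth by keeping cells of young organs dividing for longer.

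Neither member passed the test in any of the group comparisons made. In limma's moderated test over all probe sets 0 of 2 passed an adjusted p of 0.05 in each of 8 group comparisons and in the interaction of construct and time, and 0 of 2 had an unadjusted p under 0.05 in any of them. Over all probe sets 1.13% were called between the constructs at 240 min and 0.0044% at 90 min. From 0 min the wild-type lines had 1.62% called at 90 min and 6.82% at 240 min. It was 0.0396% and 0.154% for mutant KLU at 90 and 240 min against uninduced wild-type lines, and 0% for both comparisons of 240 with 90 min and for their interaction. With such shares, 0 of 2 calls would be the usual outcome for any pair of probe sets.

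CDC27a encodes a subunit of the anaphase-promoting complex and is a paralogue of HBT. Its log2 intensity was 3.92 in line 3-1 and 4.17 in line 4-3 before induction, 3.95 and 4.03 at 90 min, and 4.21 and 4.11 at 240 min. With mutant KLU it was 4.16 in line 1-5 and 4.33 in line 3-2 at 90 min, and 4.20 and 4.10 at 240 min. The 10 values span 0.41, against a median span of 0.70 over all probe sets, and 28.6% of probe sets had a lower mean, so the signal was both dim and steady. With no detection call in the file, a steady signal at this level does not show whether the transcript was present.

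The group means of CDC27a, from the highest, were 4.25 ± 0.12 with mutant KLU at 90 min, 4.16 ± 0.07 with wild-type KLU at 240 min, 4.15 ± 0.07 with mutant KLU at 240 min, 4.04 ± 0.18 before induction and 3.99 ± 0.06 with wild-type KLU at 90 min (SD, 2 arrays each). No neighbours in this order differ by more than their spread. The wild-type and mutant arrays at 90 min do not overlap, with a difference of -0.26 (SE 0.137, 95% interval -0.57 to 0.06, adjusted p = 1). At 240 min they overlap, and the difference was 0.01 with an interval from -0.31 to 0.33. Against uninduced lines CDC27a differed by -0.06 after 90 min of wild-type KLU and by 0.12 after 240 min (95% interval at 240 min -0.20 to 0.43). Over the 8 group comparisons no 95% interval of CDC27a went below -0.57 or above 0.52.

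**Figure D1:**
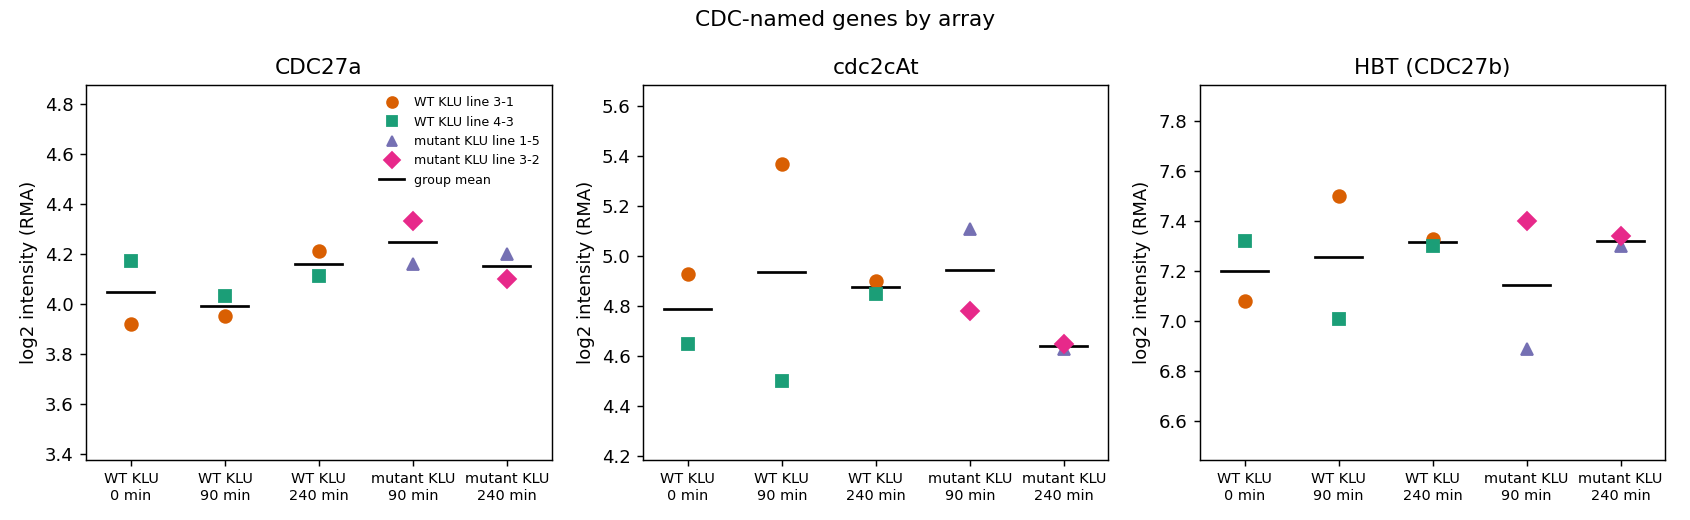
Log2 RMA intensity of CDC27a, cdc2cAt and HBT (CDC27b) on each of 10 arrays, by group; symbols mark the transformed line, bars the mean of 2 arrays, and each vertical axis spans the same number of log2 units around its own centre. CDC27a stays between 3.92 and 4.33, while cdc2cAt is highest at 5.37 and lowest at 4.50, in the 2 lines of wild-type KLU at 90 min.

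The symbol cdc2cAt names a protein kinase related to Cdc2, the founding CDK. Its values were 4.93 in line 3-1 and 4.65 in line 4-3 before induction, 5.37 and 4.50 at 90 min, and 4.90 and 4.85 at 240 min. With mutant KLU they were 5.11 in line 1-5 and 4.78 in line 3-2 at 90 min, and 4.63 and 4.65 at 240 min. The highest and the lowest of all 10 values are the 2 lines of the same group, wild-type KLU at 90 min.

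The group means of cdc2cAt ran from 4.95 ± 0.23 with mutant KLU at 90 min through 4.93 ± 0.62 and 4.88 ± 0.04 with wild-type KLU at 90 and 240 min and 4.79 ± 0.20 before induction to 4.64 ± 0.01 with mutant KLU at 240 min. No neighbours in this order are set apart by more than the spread of the more variable group. Wild-type and mutant KLU at 240 min do not overlap, with a difference of 0.24 (SE 0.271, 95% interval -0.40 to 0.87, adjusted p = 0.873). At 90 min the difference was -0.01 with an interval from -0.64 to 0.62. In line 3-1 cdc2cAt was above line 4-3 at all 3 times, by 0.40 on average (SE 0.175, limma adjusted p = 0.238).

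HBT (AT2G20000), which RefSeq also calls CDC27b, encodes the other CDC27 subunit of the anaphase-promoting complex and is known as HOBBIT for its role in root meristems. It measured 7.08 in line 3-1 and 7.32 in line 4-3 before induction, 7.50 and 7.01 at 90 min, and 7.33 and 7.30 at 240 min. With mutant KLU it measured 6.89 in line 1-5 and 7.40 in line 3-2 at 90 min, and 7.30 and 7.34 at 240 min. The 2 lines of a construct were far apart at 90 min and nearly equal at 240 min for both constructs, and every group comparison overlapped. The difference between wild-type and mutant KLU at 240 min was -0.005 (95% interval -0.51 to 0.50).

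SAMBA (AT1G32310), a plant regulator of the anaphase-promoting complex known to restrain organ growth, was the cell division gene with the smallest p at 240 min. It measured 5.86 and 6.24 before induction in lines 3-1 and 4-3, 6.26 and 6.17 at 90 min, and 6.92 and 6.60 at 240 min. The mutant arrays measured 6.05 and 6.25 at 90 min and 5.97 and 6.24 at 240 min, in lines 1-5 and 3-2. Both wild-type KLU arrays at 240 min lie above all 8 others. The difference was 0.71 against uninduced lines (SE 0.188, adjusted p = 0.0674) and 0.66 against mutant KLU at 240 min (adjusted p = 0.178), so neither passed limma's threshold.

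SIM (AT5G04470), SIAMESE, encodes a CDK inhibitor that turns dividing cells to endoreduplication in trichomes. It measured 8.81 and 8.29 before induction in lines 3-1 and 4-3, 8.42 and 7.84 at 90 min, and 8.04 and 7.43 at 240 min. The 4 mutant arrays stayed between 8.36 and 8.56. Each wild-type line was lower at each later time, an order over 3 times that the mutant lines, without an uninduced array, cannot show. From 90 to 240 min SIM changed by -0.38 in line 3-1 and -0.41 in line 4-3. In mutant lines 1-5 and 3-2 it changed by 0.20 and -0.09. Against uninduced lines SIM differed by -0.42 at 90 min (adjusted p = 0.702) and by -0.82 at 240 min (95% interval -1.47 to -0.16, adjusted p = 0.138), and with the line as a block the adjusted p at 240 min was 0.0134. Against mutant KLU at 240 min it differed by -0.74 (SE 0.28, adjusted p = 0.306), and the 2 groups do not overlap. The interaction of construct and time was -0.45 (adjusted p = 1).

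TSO1 (AT3G22780), a CXC-domain protein that keeps cell division ordered in floral meristems, lay between 7.70 and 8.24 on all 10 arrays, and its differences between groups had adjusted p of at least 0.593.

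The genes of replication and chromatin assembly, called replication genes for short, were PRL, ICU2, POLA3, TOPII and HTR12. PRL encodes the MCM7 subunit of the helicase that opens the DNA, and ICU2 (AT5G67100) the catalytic subunit of DNA polymerase alpha. POLA3 (AT5G41880) is named for its part in the same polymerase complex. TOPII (AT3G23890) is topoisomerase II, and HTR12 (AT1G01370) is the centromeric histone H3, a chromatin protein. PRL measured 7.03 and 7.84 before induction in lines 3-1 and 4-3, 7.56 and 8.17 at 90 min, and 7.19 and 7.50 at 240 min. On the mutant arrays it was 8.11 and 7.70 at 90 min and 7.67 and 7.53 at 240 min, in lines 1-5 and 3-2. Its change to 90 min with wild-type KLU was 0.43 (95% interval -0.30 to 1.16, adjusted p = 0.744), and the lines of the group differ by more than that.

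The mitosis and cytokinesis genes were the Aurora kinases AUR1, AUR2 and AUR3, the spindle checkpoint genes BUBR1 and BUB3.1, TON1B, which acts in the preprophase band, and KEU, KEULE, which acts in fusing vesicles at the cell plate. Together with the replication genes these are 12 genes, and 0 of 12 passed limma's test in any group comparison. Wild-type KLU was below mutant KLU for 9 of 12 at 240 min and for 10 of 12 at 90 min, with medians of -0.20 and -0.15. Over all probe sets 11296 of 22746 differences were below 0 at 240 min and 11764 at 90 min, with medians of 0.00 and -0.01. At 90 min the 7 mitosis and cytokinesis genes averaged 6.796 in line 3-1 and 7.254 in line 4-3. Mutant lines 1-5 and 3-2 averaged 7.214 and 7.079. For the 4 replication genes other than PRL these means were 6.3975, 6.8575, 6.88 and 6.7225. Line 4-3 thus lay near the mutant arrays at 90 min, and line 3-1 below them. At 240 min the means were 6.956, 7.096, 7.113 and 7.253 for mitosis, and 6.4225, 6.575, 6.5625 and 6.765 for replication. Against uninduced lines the 12 had a median of 0.03 after 90 min of wild-type KLU and of -0.06 after 240 min. With mutant KLU, set against the same uninduced arrays, they were 0.19 and 0.18, with 11 and 10 of 12 above 0. Of all probe sets, 10512 and 10297 of 22746 were above 0 in these comparisons. Before induction the means were 6.787 in line 3-1 and 7.247 in line 4-3 for mitosis, and 6.1525 and 7.0875 for replication. The mutant means lay between those of the 2 uninduced lines, except for mitosis in line 3-2 at 240 min (7.253).

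Among the replication genes ICU2 ranged from 5.45 to 6.46 over the 10 arrays, POLA3 from 7.02 to 7.75 and HTR12 from 5.04 to 6.10. For ICU2 and HTR12 both ends of the range were the uninduced lines, line 3-1 at the low and line 4-3 at the high end. Among the mitosis genes AUR1 ranged from 7.26 to 8.15 and BUBR1 from 5.01 to 6.19, and for both the ends were lines 3-1 and 4-3 of wild-type KLU at 90 min. AUR2 ranged from 6.71 to 7.42, AUR3 from 5.66 to 6.45 and TON1B from 6.86 to 7.30. KEU was the steadiest of the 12, from 7.75 to 8.07. It measured 7.77 and 7.75 in the uninduced lines and 8.05 and 8.06 at 240 min of wild-type KLU, a difference of 0.29 (adjusted p = 0.21).

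Of all 18 cell division genes, 7 had both wild-type arrays below both mutant arrays at 240 min and 3 had them above, where 20.1% and 21% of all probe sets did. At 90 min 2 lay below and 0 above, where 14.3% and 13.5% of all probe sets did. An unadjusted p under 0.05 was found for 2 of the 18 genes between the constructs at 240 min, for 3 between 240 and 0 min in the wild-type lines, and for 0 between the constructs or from 0 min at 90 min. Over all probe sets 2947, 5023, 1334 and 2634 of 22746 had one in these 4 comparisons, so none of these unadjusted counts of the 18 genes was above the general share. Limma called 0 of 18 after adjustment in each of these 4 comparisons, in a fit that ignores the pairing of arrays by line. With the line as a block, SIM was called between 240 and 0 min (adjusted p = 0.0134). Among 10 pollen markers TUA1 and AGL30 were called higher in the wild-type lines at 90 and at 240 min than at 0 min, and ACT11 lower at 240 min. TUA1 was also called higher with wild-type than with mutant KLU at 240 min, by 1.60 (SE 0.172, adjusted p = 0.014), and AGL30 differed there by 1.34 (adjusted p = 0.0632). Their part in the values above was not tested.

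**Figure D2:**
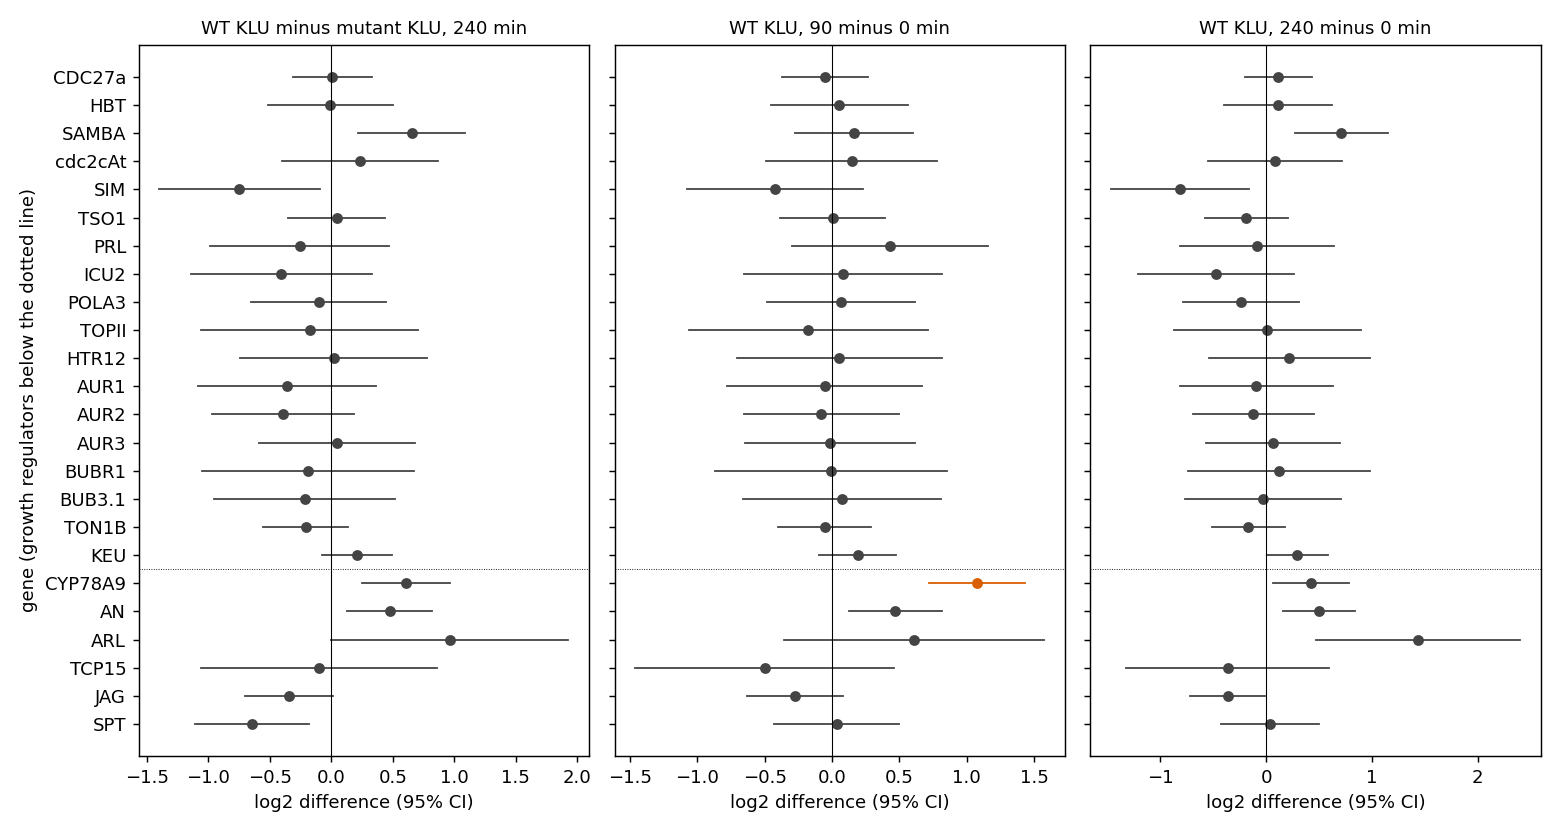
Log2 differences with 95% intervals of 18 cell division genes and 6 growth regulators (below the dotted line) in 3 comparisons. They come from limma's fit of all 10 arrays without the line as a block, and orange marks an adjusted p under 0.05. CYP78A9 at 90 min against 0 min, at 1.08, is the 1 such gene, and most intervals of the cell division genes include 0.

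Of these 18 genes, 3 passed the test between the 2 wild-type KLU lines. TOPII and BUB3.1 were lower, and SIM was higher, in line 3-1 than in line 4-3 over the 3 times. TOPII measured 7.09 in line 3-1 and 8.12 in line 4-3 before induction, 7.0 and 7.86 at 90 min, and 7.39 and 7.84 at 240 min. Line 3-1 was thus the lower line at each time, and its 3 arrays do not overlap with those of line 4-3. In a limma fit with a line effect per construct, line 3-1 minus line 4-3 was -0.78 for TOPII (SE 0.137, adjusted p = 0.033).

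BUB3.1 measured 7.42 in line 3-1 and 8.27 in line 4-3 before induction, 7.62 and 8.22 at 90 min, and 7.60 and 8.03 at 240 min. Its line difference was -0.63 (SE 0.117, adjusted p = 0.0388), again with no overlap. That of SIM was 0.57 (SE 0.107, adjusted p = 0.0394), with 0.52, 0.58 and 0.61 at the 3 times. These pools come from 1 line each, so the p covers the spread between pools of these lines, not between transformed lines in general.

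Of the 3 genes that passed, out of 18, 1 was higher and 2 were lower in line 3-1, where 4.4% of all probe sets passed, 3.21% higher and 1.19% lower. Of the 2 members 0 passed. BUBR1, with -0.72 (adjusted p = 0.0634), PRL, with -0.58 (adjusted p = 0.065), AUR1, with -0.55 (adjusted p = 0.109), and HTR12, with -0.49 (adjusted p = 0.208), did not pass. Line 4-3 was above line 3-1 at all 3 times for 9 of 18, against 24.5% of all probe sets, and below it for 2 of 18, against 18.2%. The 3 calls rest on the full set of arrays. Without any 1 of the 10 arrays the count fell to 0 or 1, and where 1 remained it was TOPII, without either wild-type array at 240 min. Between the mutant lines 3-2 and 1-5 limma called 0 of 18 genes and 0% of all probe sets, with 0 of 18 at an unadjusted p under 0.05, against 2215 of 22746 probe sets. For the wild-type lines 8 of 18 had an unadjusted p under 0.05, against 5157 of 22746. Whether the line difference itself differed between the constructs was not tested.

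The line difference of the 12 replication and mitosis genes was not the same at each time. The median of line 4-3 minus line 3-1 was 0.64 before induction, 0.41 at 90 min and 0.13 at 240 min, with 11, 11 and 9 of 12 above 0. Over all probe sets it was 0.03, 0.06 and 0.01. With 1 array a line at each time, whether the difference changed with time was not tested. In the mutant lines the median of line 1-5 minus line 3-2 was 0.18 at 90 min and -0.03 at 240 min.

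**Figure D3:**
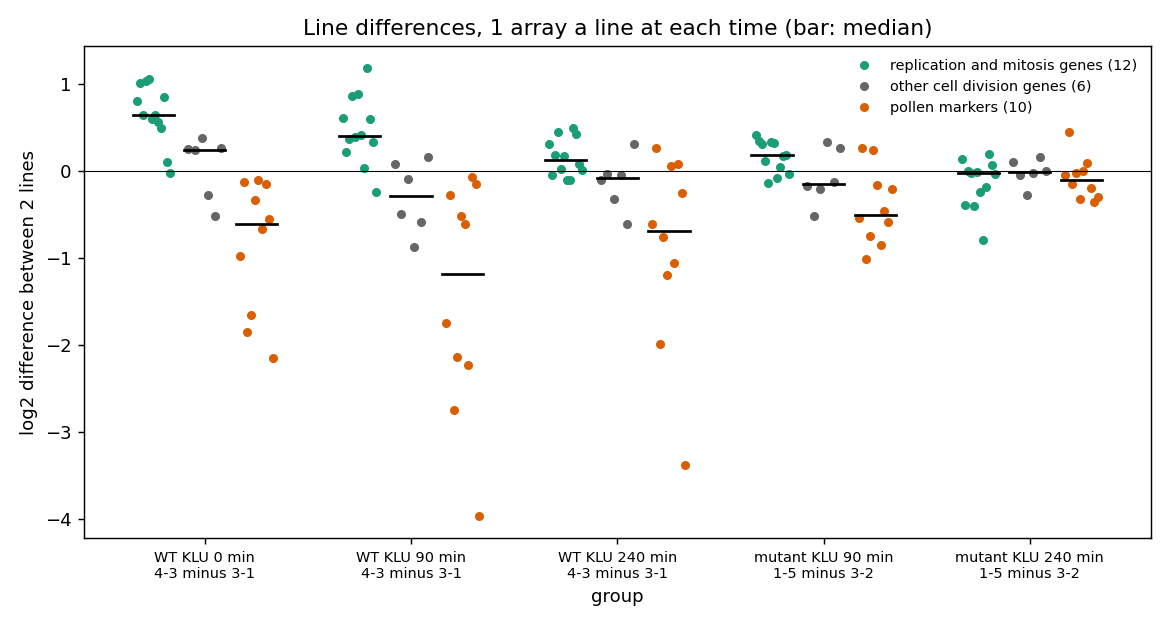
Difference in log2 intensity between the 2 lines of a construct in each group, 1 point a gene, for 12 replication and mitosis genes, 6 other cell division genes and 10 pollen markers; bars are medians. In the wild-type lines the replication and mitosis genes lie mostly above 0 and the pollen markers mostly below, with medians of 0.64 and -0.61 before induction.

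Pollen markers differed between the wild-type lines in the opposite direction. All 10 measured markers, of 36 listed, were higher in line 3-1 than in line 4-3 at 0 and 90 min, and 7 of 10 at 240 min. The median of line 4-3 minus line 3-1 was -0.61, -1.18 and -0.69 at the 3 times. This gap was largest at 90 min, while that of the 12 replication and mitosis genes was largest before induction. For line 1-5 minus line 3-2 of mutant KLU the marker median was -0.50 at 90 min and -0.10 at 240 min. PLIM2a, a LIM protein gene of pollen, with 3.16 for line 3-1 minus line 4-3 (adjusted p = 0.00791), and MGH3, a histone gene of male gametes, with 2.19 (adjusted p = 0.00844), had the smallest p. Mean marker levels were 6.53 and 5.67 in lines 3-1 and 4-3 before induction, 7.43 and 5.99 at 90 min, 6.74 and 5.86 at 240 min, and between 6.21 and 6.69 on the mutant arrays. These means include TUA1 and AGL30, so they do not compare pollen content between times or constructs. From 0 to 90 min these 2 genes rose by 2.25 and 1.57 in line 3-1 and by 2.33 and 1.97 in line 4-3. The part of the pollen markers in the line differences was not tested. In pooled tissue, fewer dividing cells and less RNA per dividing cell cannot be told apart.

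Markers of the labelled tissue were few. UFO and CLV3 were measured of 21 symbols of floral organs and meristem, at 3.24 to 3.87 and 3.25 to 3.78. Of 18 tapetum and anther symbols 3 were measured, EMS1 at 6.36 to 7.41, SPL at 5.83 to 6.76 and AMS at 4.11 to 4.95. No leaf marker was measured, and with no detection call in the file these levels do not show which transcripts were present.

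**Figure D4:**
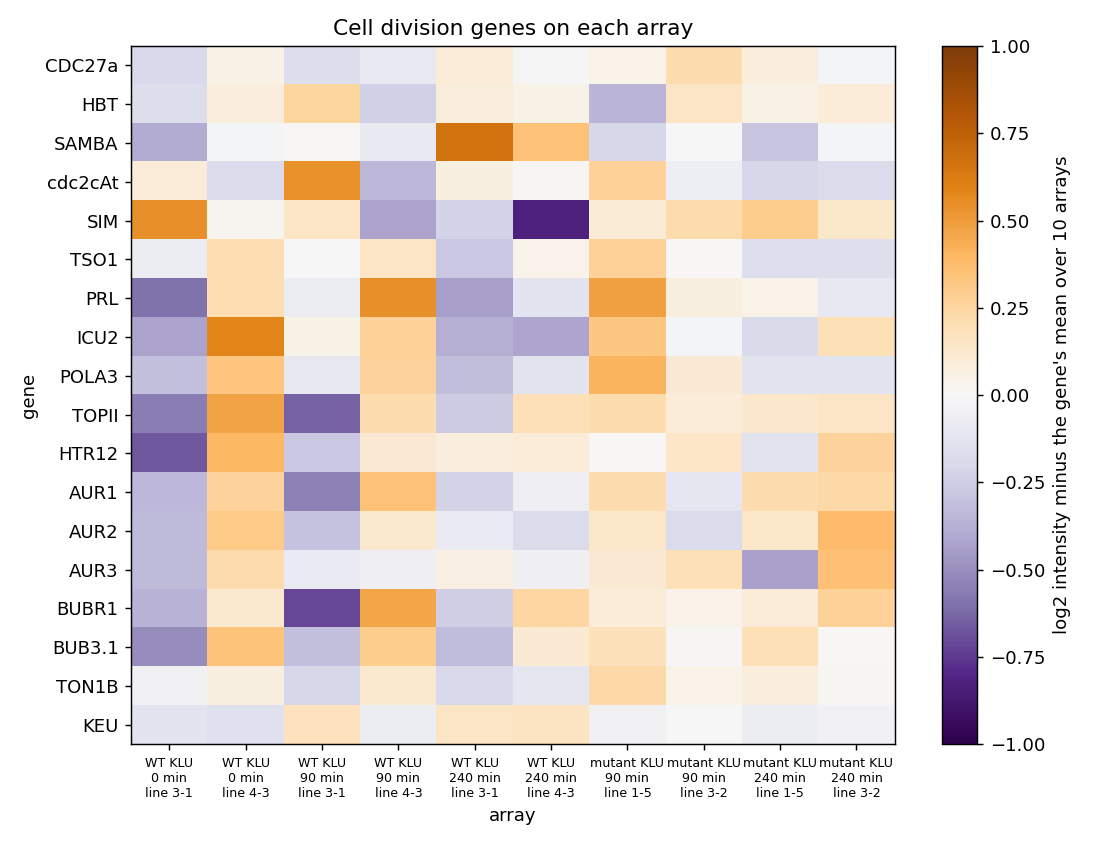
Log2 intensity of 18 cell division genes on each array minus the gene's own mean over 10 arrays, on a scale from -1 to 1, with genes in rows and arrays in columns. The array of line 3-1 before induction is low for most replication and mitosis genes, as for HTR12, which measured 5.04 there and 6.10 in line 4-3.

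Of the regulators of organ growth 6 of 40 listed were measured. CYP78A9, the close relative of KLU, rose with wild-type KLU from 4.75 and 4.58 before induction to 5.78 and 5.70 at 90 min and measured 4.98 and 5.20 at 240 min. The mutant arrays stayed between 4.36 and 4.66. Its change at 90 min against 0 min was 1.08 (SE 0.153, adjusted p = 0.0235), and without any 1 of the 4 arrays compared the adjusted p was between 0.0841 and 0.114. In a fit of the compared groups alone it was 0.137. The change at 90 min was the 1 call among the 6 in the group comparisons without the line as a block. An unadjusted limma p under 0.05 was found for 4 of 6 between the constructs at 240 min, with 3 of the 6 differences above 0 and 3 below. It was also found for 4 of 6 between 240 and 0 min in the wild-type lines. At 90 min it was 2 of 6 between the constructs and 2 of 6 from 0 min. Over all probe sets 2947, 5023, 1334 and 2634 of 22746 had one in these comparisons.

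ARL, ARGOS-LIKE, known to promote cell expansion, measured 5.61 and 6.15 before induction, 6.49 in both lines at 90 min, and 6.65 and 7.98 at 240 min. With mutant KLU it measured 6.82 and 6.24 at 90 min and 6.26 and 6.44 at 240 min. Its change at 240 min against 0 min was 1.44 (SE 0.414, adjusted p = 0.0866), with 0.0367 when the line was a block, and line 4-3 at 240 min was the highest array. AN, ANGUSTIFOLIA, which shapes cell expansion, differed by 0.50 at 240 min against 0 min (adjusted p = 0.0915), and the 2 groups did not overlap.

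SPT, a bHLH factor gene of carpel and leaf growth, differed by -0.64 between wild-type and mutant KLU at 240 min (adjusted p = 0.203). Its mean stayed at 6.275, 6.31 and 6.315 with wild-type KLU at 0, 90 and 240 min. With mutant KLU it was 6.45 at 90 min and 6.96 at 240 min, so the gap lay in higher mutant arrays. Between the constructs at 240 min JAG, a zinc finger gene of lateral organ growth, differed by -0.34 (adjusted p = 0.42). TCP15, a TCP factor gene, differed there by -0.10 (adjusted p = 0.988). RAD9, a DNA damage checkpoint gene, was the 1 gene measured of the 20 of its list and differed by -0.37 with wild-type KLU at 240 min against uninduced (adjusted p = 0.307).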

How the data were processed

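The deposited values are log2 intensities from RMA, as the submitters' processing notes name it (version not given in the sources used here), a method that removes background, makes arrays comparable and gives 1 value a probe set. The values were used as deposited. Tests covered 22746 of 22810 probe sets, after removal of 64 controls. By the platform's annotation, 13513 have 1 gene and 503 several, and 8730 have no entry. The RefSeq table (TAIR10.1) was used for loci and synonyms. GR1, there a glutathione reductase, was left out of the damage list.

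The test was limma's (version 3.58.1, R 4.3.3) on 5 group means over all 10 arrays, two-sided, with Benjamini-Hochberg adjustment over all probe sets at 0.05. Line differences were fitted with 1 line effect per construct. Each line recurs at each time, so arrays are paired by line, and the line difference correlated between times across probe sets with 0.633, 0.475 and 0.606 (wild-type KLU) and 0.348 (mutant KLU). The fits were tested on simulated data. For the group comparison these held no line effect, so the pairing by line was not covered. The members and lists were chosen with earlier results of these data known. Every member may be named, and of the lists those with the smallest p and the extremes. No label gives a batch or scan date. The number of arrays limits precision, and promoter motifs were not analysed here. Figures were drawn with matplotlib 3.10.9.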

Additional observations from a re-analysis of the deposited data

How the results depend on the processing

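For CDC27a and cdc2cAt 0 of 326 recomputed values passed the threshold under any alternative, and the lowest adjusted p was 0.185. With the replicate block, the line as a block, 1 cell division gene (SIM) instead of 0 was called between 240 and 0 min in the wild-type lines, and the block changed no other count of cell division genes. For wild-type line 3-1 against line 4-3 the count of 3 was 0 in a fit of the wild-type arrays alone, which has fewer arrays to estimate the spread, and between 0 and 1 without each array in turn. In group comparisons, 1 array left alone in its group is assumed to vary like the others. In the line fit such an array adds nothing, so leaving out either wild-type array of a time gave the same line difference. Leaving out any 1 mutant array gave the same result for the wild-type lines as the wild-type arrays alone. Under quantile normalization SIM had a limma adjusted p of 0.0508 for line 3-1 against line 4-3. The line comparisons have no fit without the block. Over all probe sets, calls between 240 and 0 min in the wild-type lines numbered 1551, 2689 with the block and 424 in the compared groups alone, and at 90 min 369, 778 and 59. Between the constructs at 240 min they numbered 258, 302 and 0. The line difference had 1000, and 588 from the wild-type arrays alone.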
